A study of Rattus norvegicus with 6 samples.

Results

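AMPA and kainate receptors are ionotropic glutamate receptors distinct from the NMDA class, and the 9 genes that encode their subunits, Gria1 to Gria4 (AMPA) and Grik1 to Grik5 (kainate), were examined in rat dorsal root ganglia (DRG) after chronic constriction injury (CCI) of the sciatic nerve. Rows of the deposited gene table were taken by symbol, a protein-coding row first and then the row with the largest summed count, which gave 9 of 43350 gene rows. The members were chosen as a gene family and not for how they changed, although earlier results of these data were known by then. The samples were ipsilateral lumbar 4-6 DRG of male Sprague-Dawley rats, taken on day 11 after surgery. In the CCI group (n = 3 rats) the left sciatic nerve had been tied loosely, and in the Sham group (n = 3 rats) the nerve was described in the methods as exposed without ligation, although the labels list no treatment for it. Both groups had anesthesia and surgery, and the rats were chosen after they had shown the withdrawal behavior sought in their group. The methods give 1 rat per sample, and that was followed here although the wording of the labels mentions pooling.

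Each receptor is an assembly of 4 subunits that opens a cation channel when glutamate binds. In AMPA receptors the subunit from Gria2, once its RNA has been edited at the Q/R site, keeps calcium out. In kainate receptors the products of Grik1, Grik2 and Grik3 can form channels of their own, while those of Grik4 and Grik5 need one of them as a partner. Sensory neurons of the DRG are known for kainate receptors rich in the Grik1 product on their axons and central terminals, and central terminals also carry AMPA receptors.

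The 6 libraries held 75423546 to 87615743 counts, and 3 counts corresponded to 0.0341 to 0.0394 CPM, counts scaled to the effective library size. A list of 8 pan-neuronal markers was detected in all libraries, with a summed level of 3353 to 3569 CPM in CCI and 3254 to 3710 CPM in Sham. Of 8 nerve injury markers 8 passed the limits given below and were higher in CCI, with a summed level of 424 to 736 CPM against 173 to 185 CPM. The macrophage list had 4 of 7 genes higher, from 64.9 to 88.2 CPM in Sham to 90.3 to 135.4 CPM in CCI. Of these genes, Csf1r, Cd68 and Cx3cr1 were likewise reported as upregulated by the study. Among 6 skeletal muscle markers 4 were lower in CCI, where the summed level was 8.46 to 22.4 CPM. That list summed to 375.8 CPM in Sham 1, against 11.4 and 47.6 CPM in Sham 2 and Sham 3, and Tnni2 had 0 counts in the CCI libraries. RNA came from whole ganglia, so fewer cells of a type and less RNA per cell cannot be told apart.

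Grik1 was the most abundant of the 9 subunit RNAs. Its level per length was 11.7 FPKM (fragments scaled to the length of the gene model and to the library size), averaged over the 6 libraries. Grik5 followed at 6.76 FPKM, Grik2 at 5.14 FPKM and Gria2 at 4.94 FPKM. Gria4 lay at 4.22 FPKM, Grik4 at 4.16 FPKM, Grik3 at 3.31 FPKM, Gria3 at 2.91 FPKM and Gria1 at 1.68 FPKM. Grik1 lay above Grik5 in 6 of 6 libraries, and Gria3 lay above Gria1 in 6 of 6 libraries, with ranges that did not overlap in both cases. All other neighbors in this order had overlapping ranges, and Grik2 exceeded Gria2 in 2 of 6 libraries. The lengths of the gene models made by the authors ranged from 3.9 kb for Gria1 to 22.8 kb for Grik1, so the order per length depends on these models.

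**Figure D1:**
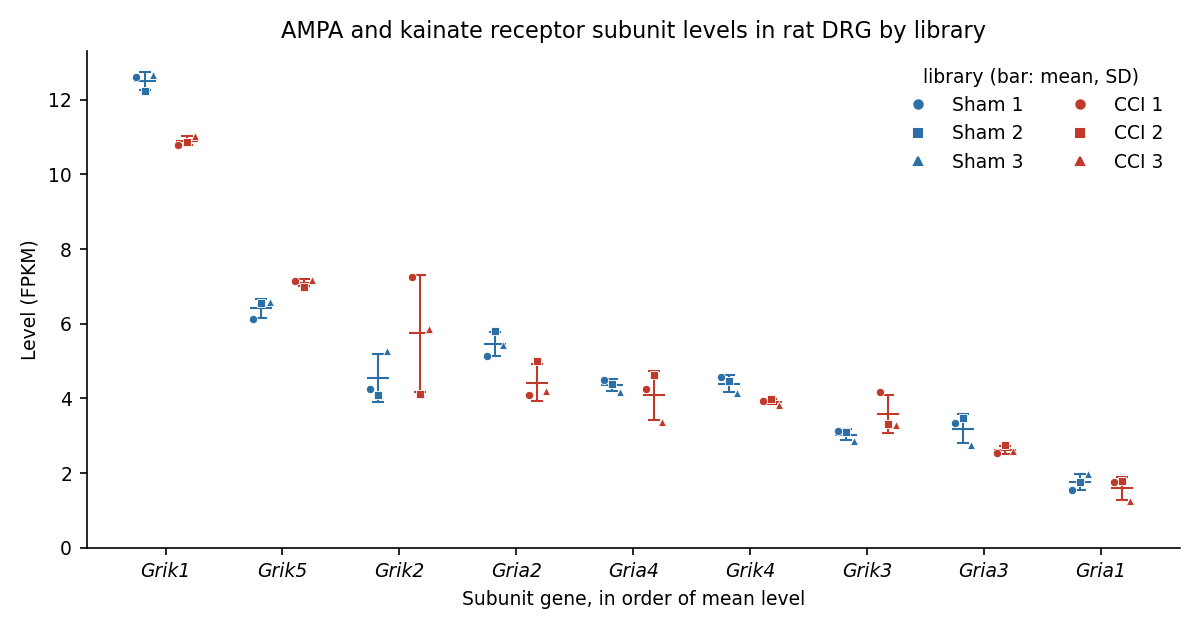
Levels of the 9 subunit genes in FPKM (vertical axis) by gene, in order of mean level. Points are single libraries (blue Sham, red CCI, 3 each), horizontal bars are group means and error bars are SD. Grik1 lies above all other subunits in every library, and the 3 CCI points of Grik2 are spread from 4.13 to 7.25 FPKM.

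To ask whether nerve injury changed subunit RNA, CCI was compared with Sham. At the limits used in the study, which ask for an unadjusted p under 0.05 together with an absolute log2 fold change from 0.58 upward, 0 of the 9 members were higher and 0 were lower. Over all 26663 rows tested, 2.57% were higher and 1.26% lower at these limits. After Benjamini-Hochberg adjustment over all rows tested with edgeR's quasi-likelihood method, 0 members passed an adjusted p of 0.05, against 0.0638% of rows that passed as higher and 0.03% as lower. The differences were small and in both directions, with 6 negative and 3 positive log2 fold changes and a median of -0.16, beside 0.0055 over all rows tested. At an unadjusted p under 0.05 at any fold, a rule chosen after the values had been seen, 4 members were lower in CCI (Grik1, Gria2, Gria3 and Grik4) and 0 were higher, beside 5.18% and 5.57% of all rows. The same 4 members had every CCI library below every Sham library, and Grik3 and Grik5 had every CCI library above every Sham library. Among all rows the groups were separated in this way, in CPM, for 8.7% in the lower and 8.63% in the higher direction.

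**Figure D2:**
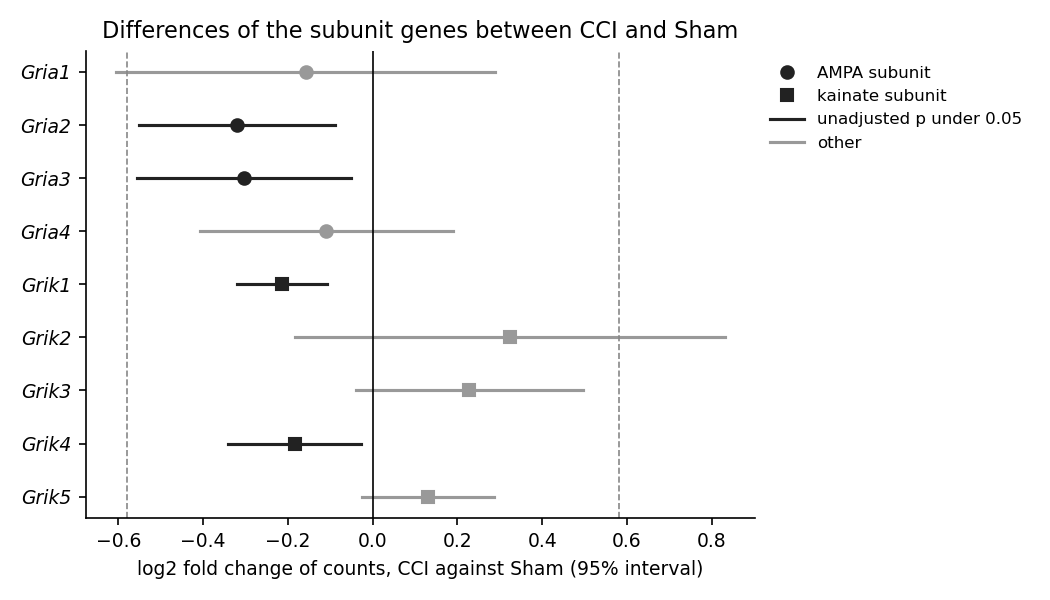
Log2 fold changes of counts, CCI against Sham (horizontal axis), for the 9 subunit genes, with 95% intervals from edgeR's quasi-likelihood fit. Dashed lines mark 0.58 in either direction. The intervals of Gria2, Gria3, Grik1 and Grik4 (black) lie below 0, and the point estimates of all 9 genes lie within the dashed lines.

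Grik1, which encodes GluK1, a subunit that can form kainate channels alone, lies on the minus strand at chr11:27811957-28213966 of the rat genome that the study names V101. Its CCI libraries had 245.5, 246.5 and 249.0 CPM, and its Sham libraries had 286.8, 281.0 and 291.8 CPM. The groups did not overlap, and the values within each group lay close together. The level was 10.9 ± 0.12 FPKM in CCI and 12.5 ± 0.24 FPKM in Sham (SD, n = 3 each). The log2 fold change was -0.21 (SE 0.044, 95% interval -0.32 to -0.11), a difference of -13.8%, with an unadjusted p of 0.00229 and an adjusted p = 0.174 by edgeR's quasi-likelihood test. DESeq2 gave the same direction with an adjusted p of 0.0228, so this gene passed in that tool and not in edgeR. DESeq2 passed far more rows in general, 432 higher and 319 lower of 26549, against 17 and 8 of 26663 in edgeR. Over the 15 alternatives the adjusted p of Grik1 ranged from 0.0228 to 0.562. Over all alternatives the unadjusted p ranged from 0.000539 to 0.0415, the latter when libraries were scaled on pan-neuronal counts.

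Gria2 encodes GluA2, the subunit that sets calcium permeability, and its row (chr2:179580856-179704629, minus strand) is joined with the microRNA gene Mir2985. CCI libraries had 49.9, 60.6 and 50.7 CPM and Sham libraries 62.6, 71.4 and 67.1 CPM. CCI 2, the highest of its group, lay below Sham 1, the lowest of the other group. The log2 fold change was -0.32 (SE 0.096, 95% interval -0.55 to -0.089), with an unadjusted p of 0.0141 and an adjusted p = 0.317 by edgeR. Without CCI 2 it was -0.41, and without Sham 2 or CCI 1 it was -0.27.

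Gria3, the X-linked gene of GluA3, had 14.4, 15.6 and 14.6 CPM in CCI and 19.1, 20.0 and 16.0 CPM in Sham. Sham 3 was close to CCI 2, and the other Sham libraries stood apart. The log2 fold change was -0.30 (SE 0.105), with an unadjusted p of 0.0252 and an adjusted p = 0.379 by edgeR. Its row at chrX:127562660-127829753 is joined with AABR07041374. Grik4, whose product GluK4 has high affinity for kainate, had 25.4, 25.6 and 24.6 CPM in CCI and 29.5, 29.1 and 27.1 CPM in Sham. The Grik4 row is joined with Gm24420. The groups did not overlap, with Sham 3 nearest to the CCI libraries. The log2 fold change was -0.18 (SE 0.066), with an unadjusted p of 0.0283 and an adjusted p = 0.390 by edgeR. The unadjusted p of Gria3 rose above 0.05 without CCI 1, CCI 3, Sham 1 or Sham 2, as did that of Grik4, which also did so without CCI 2 (p from 0.0255 to 0.0815 for Grik4 over the 6 fits).

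Gria4 and Gria1, the other AMPA subunits, overlapped between groups. The Gria4 row is joined with AC107267. Gria4 had 25.7, 27.9 and 20.2 CPM in CCI and 27.2, 26.9 and 25.7 CPM in Sham, with a log2 fold change of -0.11 (95% interval -0.41 to 0.19). CCI 3 was the lowest library, and without it the log2 fold change was 0.014. Gria1, with the lowest counts of the 9 (367 to 644 per library), had 6.85, 6.91 and 4.82 CPM in CCI and 6.05, 6.90 and 7.78 CPM in Sham. Its log2 fold change was -0.16 (95% interval -0.61 to 0.29), an interval that reaches beyond the limit of 0.58. Without CCI 3 it was -0.0064. The data therefore limit the size of a difference of Gria1 only loosely.

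Of the genes on the positive side, Grik5 encodes GluK5, a partner subunit of high affinity. It had 30.6, 29.8 and 30.5 CPM in CCI and 26.1, 28.3 and 28.5 CPM in Sham. Every CCI library was above every Sham library, and the log2 fold change was 0.13 (95% interval -0.025 to 0.29, adjusted p = 0.555 by edgeR). Grik3, the gene of GluK3, had 41.5, 32.6 and 32.3 CPM in CCI and 30.9, 31.1 and 28.8 CPM in Sham. CCI 1 stood apart from the other CCI libraries. The log2 fold change was 0.23 (95% interval -0.040 to 0.50, adjusted p = 0.549 by edgeR), and without CCI 1 it was 0.10.

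Grik2 varied most between rats. It encodes GluK2 and lies on the minus strand at chr20:53789760-54523309. CCI libraries had 128.7, 73.0 and 103.3 CPM and Sham libraries had 75.5, 73.3 and 94.9 CPM. CCI 1 was the highest and CCI 2 the lowest of all 6 libraries, so the groups overlapped over the whole Sham range. The log2 fold change was 0.32 (SE 0.211, 95% interval -0.18 to 0.83, adjusted p = 0.674 by edgeR). Without CCI 2 it was 0.52 with an unadjusted p of 0.0168 (adjusted 0.428), and without CCI 1 it was 0.12. The nerve injury list, beside it, summed to 736 CPM in CCI 1, 499.8 CPM in CCI 2 and 424 CPM in CCI 3, and the Schwann cell list to 6321, 6962 and 8687 CPM. Their part in the spread of Grik2 was not tested.

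The Grik2 locus carried 13 further assembled rows under the same symbol, all within the span of the protein-coding row, of which 12 lie on the opposite strand. The library protocol marks strand, but whether counting used it is not given in the sources used here, so reads of these rows and of Grik2 introns cannot be told apart. In each library the opposite-strand rows together held 2.87 to 3.32 times the counts of the protein-coding row. Their levels varied between rats in a similar order. CCI 1 was the highest library in 11 of the 13 rows, CCI 2 was the lowest CCI library in 13 of 13, and Sham 3 was the highest Sham library in 13 of 13. These rows may share reads with the coding row and are not independent of it.

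All 13 log2 fold changes were positive (0.15 to 0.66, median 0.41), 4 rows had an unadjusted p under 0.05 and 3 of them passed the fold limit too. Over all rows tested, 5.57% were higher at an unadjusted p under 0.05 and 2.57% at the limits. The 13 rows lie in 1 locus and varied between rats in a similar order, so they are not 13 separate observations. None of them had an adjusted p under 0.05. The row with the largest difference, at chr20:53903246-53911842, had 31.7, 16.7 and 21.2 CPM in CCI and 13.7, 13.8 and 16.7 CPM in Sham, which gave a log2 fold change of 0.66 (adjusted p = 0.394 by edgeR). CCI 2 and Sham 3 were nearly level in that row. At Grik1, by contrast, the 4 further rows had log2 fold changes of -0.64 to -0.071 and 0 had an unadjusted p under 0.05. The 3 of them on the opposite strand within the gene held 0.197 to 0.272 times the counts of the coding row. Gria3 had 3 further rows and Gria4 had 1, and none of these had an unadjusted p under 0.05.

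**Figure D3:**
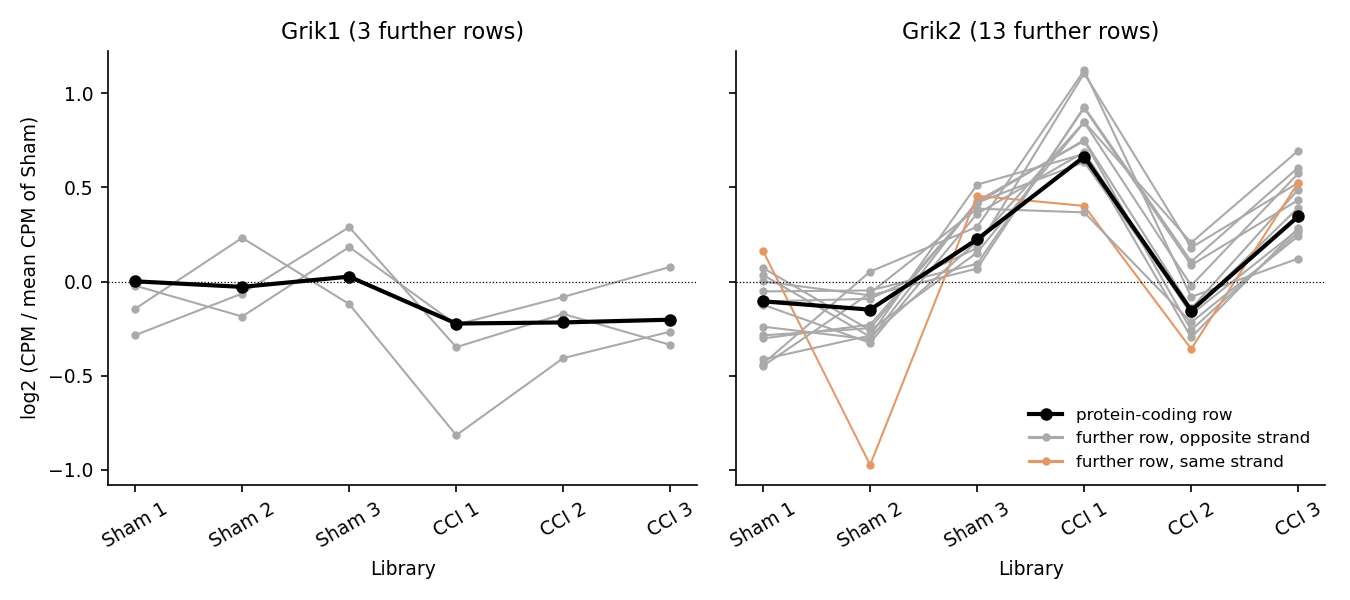
Level of each row in each library as log2 of its CPM over the mean of the Sham libraries (vertical axis), for the protein-coding row (black) and the further rows within its span (gray opposite strand, orange same strand). Lines only join the libraries of a row. CCI 1 is the highest library in 11 of the 13 further Grik2 rows and CCI 2 is the lowest CCI library in all 13, whereas the black Grik1 line is nearly flat within each group.

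The 250 bases before the RefSeq start of Grik2, the member that varied most between rats, are printed here (GRCr8, chr20:54415284-54415533, minus strand, a build other than that of the counts). Windows were available for 6 of the 9 members (Gria4 and Grik1 to Grik5). They were searched on both strands for TGACG, the core of the cyclic AMP response element, and for TGANTCA, the AP-1 site, since the nerve injury genes Atf3 and Jun encode factors of the family that binds such letters. Capitals mark the single match to TGACG, read on the other strand, which begins 162 bases before the start.
Grik2: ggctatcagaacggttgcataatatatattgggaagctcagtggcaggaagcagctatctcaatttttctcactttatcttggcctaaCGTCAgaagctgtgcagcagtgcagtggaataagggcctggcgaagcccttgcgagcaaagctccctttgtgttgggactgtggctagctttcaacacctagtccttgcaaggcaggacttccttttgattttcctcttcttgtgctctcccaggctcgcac
The other 5 windows held no TGACG, and none of the 6 held TGANTCA. The windows are not alike, since the listed start of Grik4 lies 126688 bases inside the span of its gene, and those of Grik5, Grik1 and Gria4 lie 860, 463 and 140 bases inside. Among all 33469 RefSeq windows of this length, 18.2% held TGACG and 6.34% held TGANTCA. A match of letters shows no binding, and its absence concerns these 250 bases alone.

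The summed level of the AMPA subunits was 12.6, 14.1 and 11.4 FPKM in CCI and 14.6, 15.4 and 14.3 FPKM in Sham. All CCI libraries lay below all Sham libraries, by 0.22 on the log2 scale, and the exact two-sided permutation test gave p = 0.1, the smallest value that 3 rats against 3 allow. The summed kainate level was 33.3, 29.3 and 31.2 FPKM in CCI and 30.7, 30.4 and 31.5 FPKM in Sham. These overlapped, with a log2 difference of 0.015 (exact permutation p = 0.8). Within the kainate family the shares of Grik1 and Grik3 did not overlap between groups. Grik1 held 32.4%, 37.1% and 35.4% of the summed kainate FPKM in CCI and 41.1%, 40.2% and 40.1% in Sham, a mean difference of -5.51 percentage points (exact permutation p = 0.1, adjusted 0.257 over the 9 subunits). Grik3 held 11.5% ± 1.03 in CCI and 9.82% ± 0.638 in Sham (SD, n = 3 each, exact permutation p = 0.1, adjusted 0.257).

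The remaining shares overlapped between groups. Grik2 made up 18.2% ± 3.87 of the kainate sum in CCI and 14.7% ± 1.80 in Sham. The ratio of Grik1 to Grik2 was 2.00 ± 0.582 in CCI and 2.78 ± 0.335 in Sham (SD, n = 3 each, exact permutation p = 0.2), with CCI 2 at 2.63 inside the Sham range of 2.40 to 2.99. Within the AMPA family Gria2 held 34.8% ± 2.24 in CCI and 37.0% ± 1.35 in Sham (exact permutation p = 0.2), and Gria4 held 32.0% ± 2.15 and 29.5% ± 1.25. When every row with a member symbol was summed, the difference of Grik1 became -8.07 points, that of Grik2 8.86 points and that of Grik3 0.293 points. That sum counts the 12 opposite-strand rows as Grik2, with 2.87 to 3.32 times the counts of its coding row. Whether these rows encode the subunit was not tested. Shares add up to 100% within a family, so a lower share of one subunit goes with a higher share of others.

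**Figure D4:**
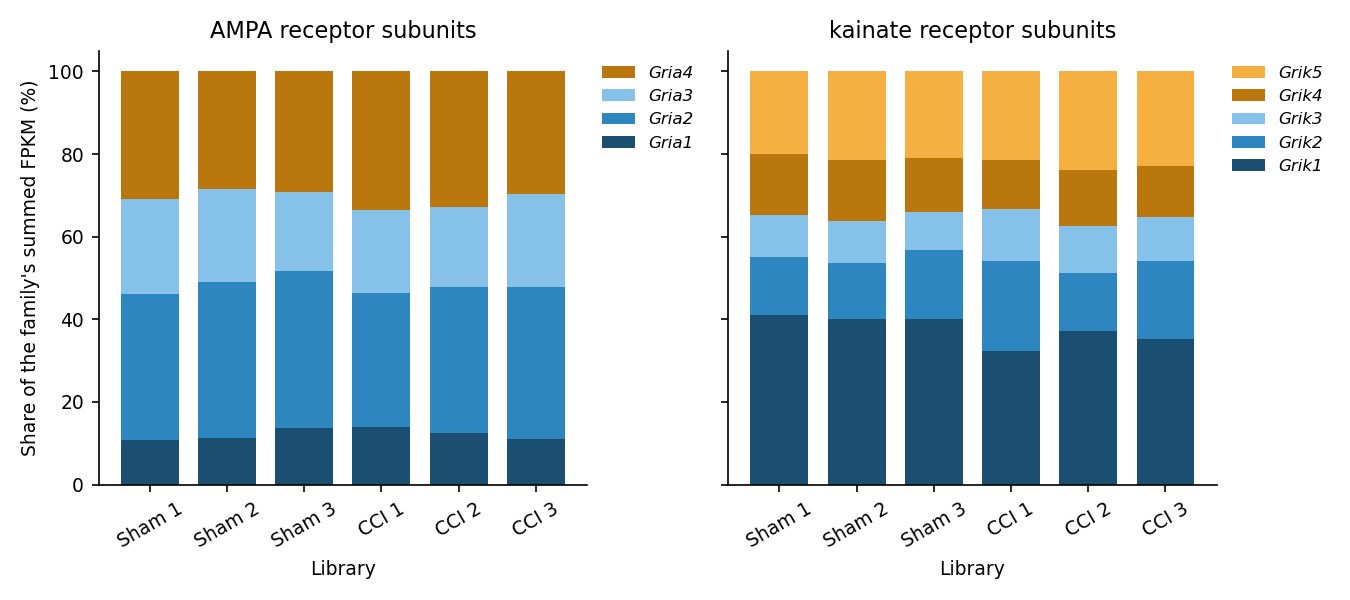
Share of each subunit in the summed FPKM of its family (vertical axis, percent) in each library, for AMPA subunits (left) and kainate subunits (right). The Grik1 segment is 40.1% to 41.1% in the Sham libraries and 32.4% to 37.1% in the CCI libraries, and the AMPA segments overlap between the groups.

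Genes that assemble, move, edit or supply these receptors were taken from 7 lists with 61 genes, of which 59 were found and 52 tested. At the limits of the study 0 were higher and 1 was lower. That gene was Cacng2, which encodes stargazin, an auxiliary subunit that carries AMPA receptors to the synapse. It had 25.7, 29.3 and 27.8 CPM in CCI and 40.8, 45.9 and 41.2 CPM in Sham, with no overlap. Its log2 fold change was -0.63 (SE 0.081, adjusted p = 0.0789 by edgeR), and it was just under the fold limit without CCI 1 (-0.58) and without Sham 2 (-0.57). Over 15 alternatives the adjusted p ranged from 6.46e-07 in DESeq2 to 0.227 without Sham 3, and it was under 0.05 in 2 of them, DESeq2 and the fit of protein-coding rows alone (0.0337). Cacng7, another auxiliary subunit and the most abundant of its list at 21.7 FPKM, had a log2 fold change of -0.064 (adjusted p = 0.845 by edgeR). Apart from Cacng2, the tested genes of this list (11 of 15 with Cacng2) lay between -0.33 and 0.55.

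At an unadjusted p under 0.05 at any fold, 5 of the 52 tested genes of the 7 lists were higher and 7 lower in CCI, beside 5.57% and 5.18% of all rows. They are named here for that reason, chosen after their values were seen. Lower beside Cacng2 were Nptx1 (log2 fold change -0.48), a secreted pentraxin that gathers AMPA receptors, and Cacng5 (-0.33), an auxiliary subunit. Nsf (-0.28), an ATPase of membrane fusion that binds GluA2, Grid1 (-0.48), a delta receptor, Slc17a7 (-0.38), the vesicular glutamate transporter VGLUT1, and Slc38a1 (-0.18), a glutamine transporter, were also lower. Nptx1 had 239.1, 229.2 and 247.6 CPM in CCI and 310.7, 339.5 and 347.7 CPM in Sham (adjusted p = 0.0789 by edgeR). Its groups were well apart, and its difference was under the fold limit. Higher were Shisa7 (0.44), an auxiliary subunit, Grip1 (0.29), a scaffold that binds GluA2 and GluA3, Nptxr (0.16), the neuronal pentraxin receptor, Adarb1 (0.24), the enzyme that edits the Q/R site of Gria2, and Got2 (0.20), a mitochondrial aspartate aminotransferase.

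The median log2 fold change of the 52 tested genes was -0.027, beside 0.0055 over all rows. It was -0.039 for AMPA auxiliary subunits, -0.082 for genes of AMPA receptor biogenesis, -0.034 for scaffolds and trafficking, 0.056 for RNA editing and -0.11 for glutamate supply and clearance. The most abundant gene of each of these lists had a log2 fold change of -0.10 for Olfm1, -0.28 for Nsf, 0.056 for Adar and 0.20 for Got2. Kainate auxiliary and ligand genes had a median of 0.39 over 3 tested genes, none with an unadjusted p under 0.05, and Neto2, the most abundant, was at 0.055. C1ql3, of the same list, was at 0.58 (adjusted p = 0.479 by edgeR). C1ql2, the untested gene of this list of 4, averaged 0.287 FPKM, under the filter. It went the other way, with 0.271, 0.211 and 0.236 CPM in CCI and 0.444, 0.894 and 0.544 CPM in Sham. The median of 1 of the 7 lists is not reported here. The editing of Gria2 RNA itself was not analysed here.

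**Figure D5:**
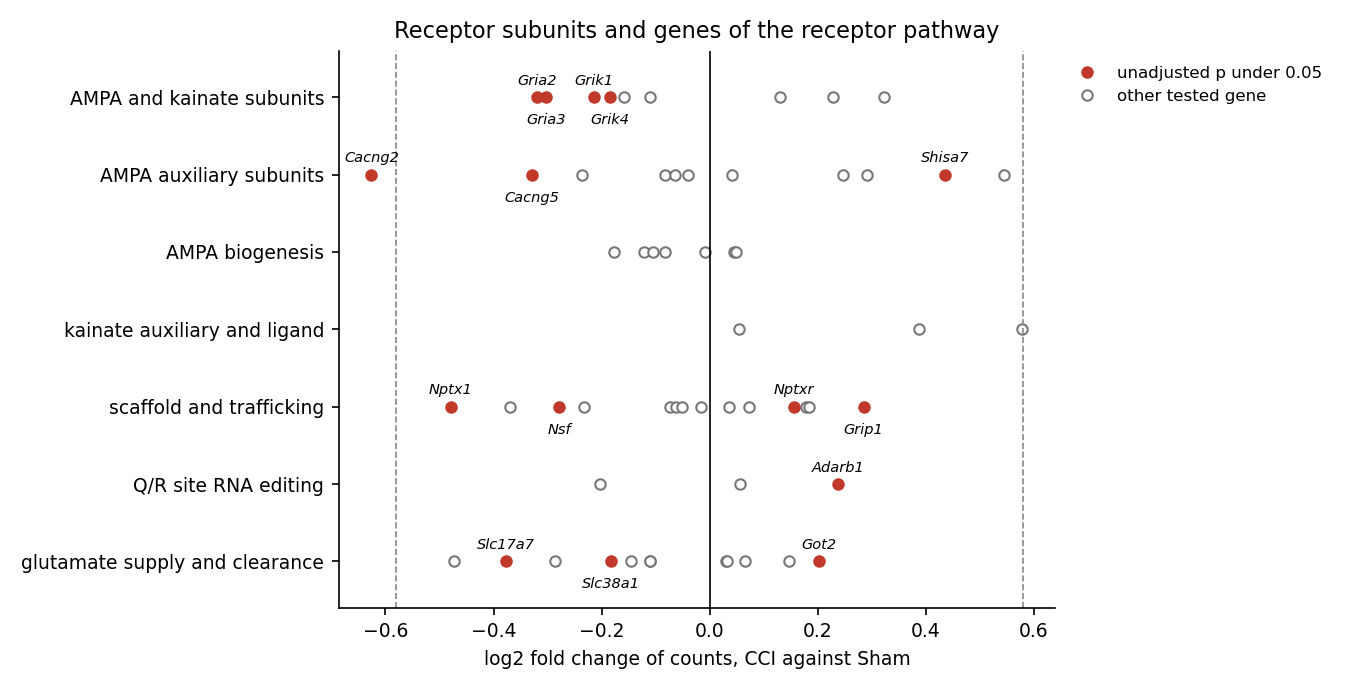
Log2 fold changes of counts, CCI against Sham (horizontal axis), for the 9 subunit genes and tested genes of 6 of the pathway lists, 1 point a gene. Filled points have an unadjusted p under 0.05 and dashed lines mark 0.58 in either direction. Cacng2 is the only filled point beyond a dashed line, and each of the other filled points lies inside.

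The genes most like Grik1 over the 6 libraries were Arhgap35, RGD1563349 and Slc2a13, out of 13711 protein-coding genes compared, by the root mean square difference of centered log2 CPM (0.0203, 0.0256 and 0.0265). Their log2 fold changes were -0.21, -0.18 and -0.20, close to that of Grik1. They were picked for this likeness, so their differences are a description.

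Marker genes of neuron classes were set beside the subunits that were lower in CCI. Among 6 markers of large-diameter neurons 1 (Pvalb) passed the limits as lower. With it, Nefh and Ntrk3 had an unadjusted p under 0.05 in that direction, 3 in all. Over all rows tested, 1.26% passed the limits as lower. At an unadjusted p under 0.05, 5.18% were lower and 5.57% higher. The large-diameter list summed to 3720 to 4042 CPM in CCI and 4771 to 5272 CPM in Sham. Without Nefh the other 5 genes summed to 1603, 1463 and 1299 CPM in CCI and 1505, 1438 and 1604 CPM in Sham, which overlap. Of these, Spp1 went the other way (log2 fold change 0.25), with 752, 582 and 446 CPM in CCI. Its Sham libraries had 514, 464 and 513 CPM. Pvalb (-0.69), Ntrk3 (-0.24) and Ntrk2 (-0.17) were lower without overlap, and Runx3 (-0.11) overlapped. Among 8 nociceptor markers 0 passed the limits, with sums of 2169 to 2445 CPM in CCI and 2289 to 2650 CPM in Sham. At an unadjusted p under 0.05, 4 were lower (Scn11a, Trpv1, Calca and Mrgprd) and 1 was higher (P2rx3). The part of these classes in the values of Grik1, Gria2, Gria3 and Grik4 was not tested. Scaling on the 8 pan-neuronal genes left Grik1 at -0.19 (adjusted p = 0.562 by edgeR) and Gria2 at -0.30 (adjusted p = 0.371), both with an unadjusted p under 0.05, while Gria3 (unadjusted p of 0.054) and Grik4 (unadjusted p of 0.139) were above it. The 8 pan-neuronal genes were not alike, and Uchl1 alone held 1407 of their 3353 CPM in CCI 1. Snap25 was at -0.39, Rbfox3 at -0.24, Elavl3 at 0.23 and Eno2 at 0.16. The others lay between -0.027 and 0.047. Without Sham 1, the library with the high muscle sum, the log2 fold changes were -0.21 for Grik1, -0.37 for Gria2, -0.28 for Gria3 and -0.16 for Grik4.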

How the data were processed

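RNA of 3 CCI and 3 Sham ganglia was sequenced after ribosomal RNA depletion. Per the labels and methods the authors mapped reads with HISAT2, assembled transcripts with StringTie 1.3.0 and deposited 1 table of whole-number counts per gene row and sample, without normalization. The FPKM values deposited beside them equal the counts over the sample's total and the model length. Rows with 0 counts are listed at a small constant FPKM. Rows averaging 0.5 FPKM or more entered the test with edgeR 4.0.16 (quasi-likelihood test, TMM factors of 0.988 to 1.01, trended prior), and p-values were adjusted over all 26663 rows. Summed levels and shares were compared by exact permutation tests (smallest p 0.1). Intervals are at 95%.

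Members and gene lists were chosen with earlier results of these data known. Named are the 9 members, listed pathway genes that passed the limits, the most abundant gene of each pathway list (1 is not reported here), markers, and the 3 genes most like Grik1. Gsg1l and Shisa9 (pathway lists) and Cntnap2 and Col1a2 (marker lists) were not found by symbol. The satellite glia (1 gene higher, 0 lower), Schwann cell (0 and 1) and fibroblast (0 and 0) lists gave those counts at an unadjusted p under 0.05, and 0 genes of the 3 lists passed the limits.

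Alternatives were DESeq2 1.42.0, median-of-ratios and pan-neuronal scaling, other filters, limma 3.58.1 on log2(FPKM + 0.1) and log2(FPKM + 1), protein-coding rows alone, a replicate block and leaving out each library. Scripts were tested on simulated data. Every numeric sample column was used.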

Additional observations from a re-analysis of the deposited data

How the results depend on the processing

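The count of 0 members at the limits of the study was the same under all 15 alternatives. With DESeq2, 1 member (Grik1) and 4 pathway genes had an adjusted p under 0.05, and with protein-coding rows alone 2 pathway genes did. Of all rows 432 higher and 319 lower of 26549 passed in DESeq2, and 41 and 37 of 13712 protein-coding rows, against 17 and 8 of 26663 as reported. The 4 members lower at an unadjusted p under 0.05 became 2 under pan-neuronal scaling, limma on log2(FPKM + 0.1) and limma on log2(FPKM + 1). They were 2 to 4 when 1 library was left out, and 0 to 1 members were then higher. Pathway genes passing the limits numbered 1 higher and 2 lower with no filter, 1 higher with limma on log2(FPKM + 0.1), 0 lower with limma on log2(FPKM + 1), and 0 to 1 in each direction when 1 library was left out. Gria4 was the only member whose direction turned, at 0.014 without CCI 3.

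With every row of a symbol summed, the kainate sum differed by 0.14 on the log2 scale, and shares by 1.07 points for Gria3, -8.07 for Grik1, 8.86 for Grik2, 0.293 for Grik3 and 0.123 for Grik5. On CPM, which ignores length, Grik4 differed by -0.556 points and Grik5 by 0.818. Only Gria3, Gria4, Grik1 and Grik2 have further rows, so summing rows changed the shares of the other subunits through the family sum alone. Shares on CPM weight each subunit by its model length. The replicate numbers did not pair the samples (correlations of deviations -0.011, -0.022 and -0.055), and a fit with a replicate block left 0 members at the limits and gave Grik1 -0.21 (adjusted p = 0.424 by edgeR). Pan-neuronal scaling moved the median of all rows to 0.026. Counts were lowest for Gria1, at 367 to 644 a library, which limits its precision.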
